A study of Mus musculus with 18 samples.

Results

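Liver transcripts of 6 mice given rosuvastatin were compared with those of 6 mice given vehicle. These 12 arrays were chosen by their sample titles from the 18 arrays of the series, and the other 6 carry liver RNA of mice given atorvastatin. All mice were C57BL/6 females of 16 weeks that had eaten a diet with 1% cholesterol by weight for 1 week, so the controls were cholesterol-fed too and no animal on plain chow enters the comparison. Rosuvastatin was given once by mouth at 20 mg/kg in tap water, the vehicle group is labelled as tap water, and livers were taken after 24 h. Each array set the RNA of 1 mouse (Cy3) against a pool of all samples of the experiment (Cy5) on Steroltalk, a cDNA array of metabolic genes. A value is the log2 ratio of a mouse over that pool, and a difference is the log2 fold change of rosuvastatin over vehicle, where -1 means a halved transcript level. Of 289 gene probes, 188 probes for 184 genes gave a signal over background on 6 or more of the 18 arrays and were kept.

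Statins block an early step of the mevalonate pathway, the route from acetyl-CoA to isoprenoids and cholesterol. The hepatocyte senses a shortage of sterols through Scap, which escorts the membrane-bound transcription factors called SREBPs to the Golgi, where proteases release their active part. Sterols hold Scap and SREBP back by way of the Insig proteins. Released SREBP switches on cholesterol synthesis and fatty acid synthesis genes, so dietary cholesterol lowers and sterol shortage raises their transcripts. Drugs in the liver are sensed by the nuclear receptors PXR (Nr1i2) and CAR (Nr1i3), which switch on cytochromes P450, conjugating enzymes and transporters. The comparison asks what a single dose of the drug does to these programmes while cholesterol is supplied by the diet.

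Cholesterol synthesis genes had 15 of 16 values below 0, and 4 of their promoters are printed because their transcripts had some of the lowest values of the list. Each run is the 200 bases before the annotated start, 5' to 3', from RefSeq (GRCm38.p6). Capitals mark CCAAT, the box bound by NF-Y, and CACNCCAC, the core of a sterol regulatory element, on either strand, where ATTGG is CCAAT read on the opposite strand.
Hmgcs1: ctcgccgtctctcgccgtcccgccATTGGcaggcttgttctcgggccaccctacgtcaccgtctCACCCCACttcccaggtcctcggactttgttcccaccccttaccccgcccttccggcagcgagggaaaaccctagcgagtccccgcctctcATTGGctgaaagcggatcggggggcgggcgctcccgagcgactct
Lss: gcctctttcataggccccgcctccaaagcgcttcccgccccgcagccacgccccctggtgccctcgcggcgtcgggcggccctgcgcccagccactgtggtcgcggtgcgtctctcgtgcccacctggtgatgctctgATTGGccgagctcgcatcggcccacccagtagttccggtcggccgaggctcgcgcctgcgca
Cyp51: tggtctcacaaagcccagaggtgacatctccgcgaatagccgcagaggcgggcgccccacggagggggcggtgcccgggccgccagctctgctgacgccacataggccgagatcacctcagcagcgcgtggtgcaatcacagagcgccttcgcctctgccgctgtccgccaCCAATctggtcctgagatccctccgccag
Msmo1: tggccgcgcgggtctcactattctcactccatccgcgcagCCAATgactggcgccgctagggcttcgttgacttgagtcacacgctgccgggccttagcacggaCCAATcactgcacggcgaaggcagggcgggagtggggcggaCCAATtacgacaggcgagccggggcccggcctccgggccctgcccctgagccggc
Hmgcs1 lies at chr13:119690151-119690350 on the plus strand, Lss at chr10:76531405-76531604 on the plus strand, Cyp51 at chr5:4104698-4104897 on the minus strand and Msmo1 at chr8:64733579-64733778 on the minus strand. Of the 16 kept genes of the list, 12 had a promoter entry. CCAAT was found in 11 of these 12 genes, where for Dhcr7 any of its annotated starts counted, and in 29.3% of all 32851 promoter windows of the same length. CACNCCAC was found in 2 of the 12 genes (Acat2 and Hmgcs1) and in 4.3% of all windows. A match is a description of the letters in this window and no evidence of binding.

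Tissue identity and array quality were checked first. All 7 hepatocyte markers were above background on all 12 arrays, while Lep of adipocytes and Star and Cyp11b2 of steroid-producing glands were above background on none. The adipocyte gene Adipoq was above background on 2 vehicle and 3 rosuvastatin arrays, and of the other gland genes Cyp11a1 on 3 and 2 and Cyp21a1 on 6 and 5. Markers of blood cells, stellate cells, bile ducts and endothelium had no probe under the names searched. Fewer hepatocytes and less RNA per hepatocyte cannot be told apart in whole tissue. The median spot of a gene ran from 206 to 376 intensity units in the sample channel over backgrounds of 62 to 104, and 155 to 218 gene probes were above background on an array. The number of arrays limits the precision. Vehicle 5 stood apart. Its median correlation with the other 17 arrays across probes was 0.252, and -0.0763 without the Saa probes, its array weight was 0.259, and its calibration spike-ins had a median log2 ratio of -0.0063, beside -1.46 to -0.42 on the other 11 arrays compared. Named genes whose value moved by over 1.5 times when vehicle 5 was left out are given both ways. This leaves aside the genes added after their values were seen, for which no value without vehicle 5 is given. The area of the ring in which background was read also differed between arrays: it was 197 pixels for 4 vehicle and 4 rosuvastatin arrays, 214 pixels for vehicle 3 and rosuvastatin 3, 212 pixels for vehicle 1 and 228 pixels for rosuvastatin 4. No label says what this reflects.

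No gene passed the test. In limma with Benjamini-Hochberg adjustment, 0 of 188 probes (0%) reached an adjusted p of 0.05, and the smallest adjusted p was 0.578. An unadjusted p under 0.05 was found for 12 probes (6.38%), of which 7 (3.72%) had values above 0 and 5 (2.66%) below. The signs were nearly balanced, with 91 probes (48.4%) above 0 and 97 (51.6%) below and a median of -0.0066. The normalisation centres the gene ratios of each array near 0, so this balance is largely built in. A shift common to most genes would be removed by it. Large values lay on one side: 12 probes (6.38%) had a log2 fold change under -0.5 and 0 had one over 0.5. In 0 of 188 probes (0%) did the 6 rosuvastatin mice and the 6 vehicle mice not overlap.

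**Figure D1:**
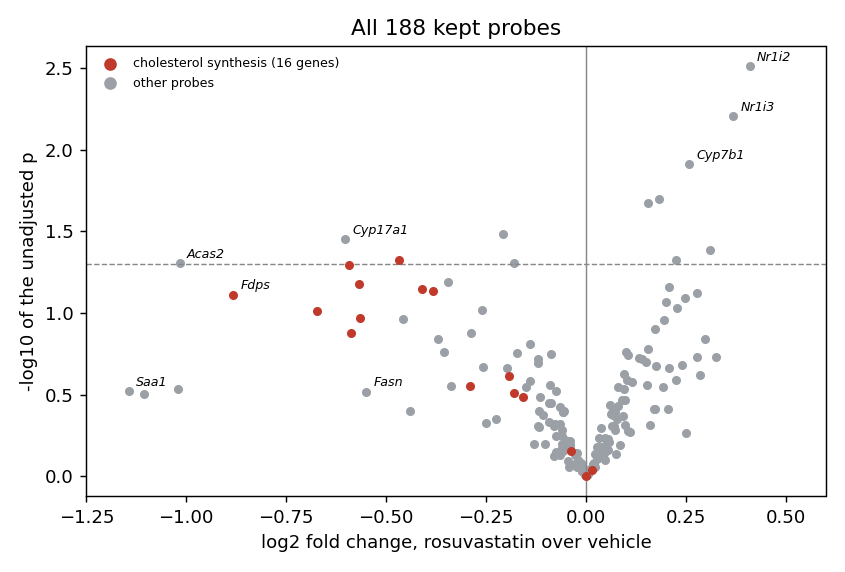
Log2 fold change of rosuvastatin over vehicle (x) against -log10 of the unadjusted limma p (y) for the 188 kept probes, with the 16 cholesterol synthesis genes in red and a dashed line at an unadjusted p of 0.05. Of the red points 15 lie left of 0, and the largest value to the right is that of Nr1i2 at 0.41.

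Of the 16 kept cholesterol synthesis genes, 15 had values below 0 and 1 above, with a median of -0.40 beside -0.0066 over all probes. By the adjusted test 0 of 16 were called, and 1 had an unadjusted p under 0.05. The pathway begins with acetyl-CoA thiolase and HMG-CoA synthase. Acat2, the thiolase, had a value of -0.04 (SE 0.09). Hmgcs1, which condenses acetoacetyl-CoA with a further acetyl-CoA, had log2 ratios with a lowest, median and highest mouse of -1.06, 0.31 and 1.08 in the vehicle group and of -0.85, -0.22 and 0.08 in the rosuvastatin group. All 6 treated mice lay below the vehicle mean of 0.19 ± 0.71 (SD, n = 6), yet none lay below vehicle 5, the lowest control. Its log2 fold change was -0.57 (SE 0.29, adjusted p = 0.723), and -0.82 without vehicle 5 (adjusted p = 0.121). The Hmgcs1 probe was above background on 6 vehicle and 5 rosuvastatin arrays.

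The next enzymes turn mevalonate into isoprenoid units. Mvk, mevalonate kinase, had a value of -0.16 (95% interval -0.48 to 0.17) and Mvd, which makes isopentenyl diphosphate, of -0.29 (-0.84 to 0.26). Idi1, the isomerase of that product, was at -0.18 (-0.54 to 0.18). Fdps, which joins the units to farnesyl diphosphate, had the lowest value of the list. Its log2 ratios in vehicle mice 1 to 6 were 1.37, -0.16, 0.80, 0.01, -1.82 and 1.00. In rosuvastatin mice 1 to 6 they were -0.55, 0.03, -1.68, -1.71, 0.28 and -0.45. Both groups spanned over 1 log2 unit, with vehicle 5 and rosuvastatin 3 and 4 low by themselves and 5 of 6 treated mice below the vehicle mean. The difference for Fdps was -0.88 (SE 0.47, interval -1.87 to 0.11, adjusted p = 0.723).

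Farnesyl diphosphate is then built into squalene and closed to the first sterol. Fdft1, squalene synthase, had log2 ratios from -0.76 to 0.51 with a median of -0.09 in vehicle mice and from -0.83 to -0.004 with a median of -0.38 in treated mice. Rosuvastatin 3 and 4 lay below the lowest vehicle mouse, and the difference was -0.41 (SE 0.21, adjusted p = 0.723). Lss, lanosterol synthase, had log2 ratios from -1.03 to 1.06 with a median of 0.28 in vehicle mice and from -1.02 to -0.04 with a median of -0.20 in treated mice. All 6 treated mice lay below the vehicle mean and none below vehicle 5. The difference for Lss was -0.59 (SE 0.28, interval -1.19 to 0.0026).

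The steps after lanosterol remove methyl groups and move double bonds. Cyp51, lanosterol demethylase, had a difference of -0.59 (SE 0.37), with all 6 treated mice below the vehicle mean of -0.05 ± 0.94 (SD, n = 6). Msmo1, the methylsterol oxidase that follows, was at -0.67 (SE 0.38), and its vehicle mice ran from -1.71 to 0.49 and its treated mice from -1.79 to 0.10. Nsdhl, the sterol dehydrogenase of the same demethylation, was at -0.56 (SE 0.33). Values of these 3 enzymes were low in the same mice, vehicle 5 and rosuvastatin 3 and 4. In those mice the Nsdhl spots were dim, at 154, 142 and 151 intensity units over array backgrounds of 75, 78 and 84. Ebp, the sterol isomerase, had a value of -0.00046 (SE 0.08) and the narrowest interval of the list, -0.16 to 0.16. Sc5d, the desaturase after it, was at -0.38 (SE 0.20), with all 6 treated mice below the vehicle mean. Dhcr7, the reductase that makes cholesterol at the end of that branch, was at -0.19 (SE 0.16).

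**Figure D2:**
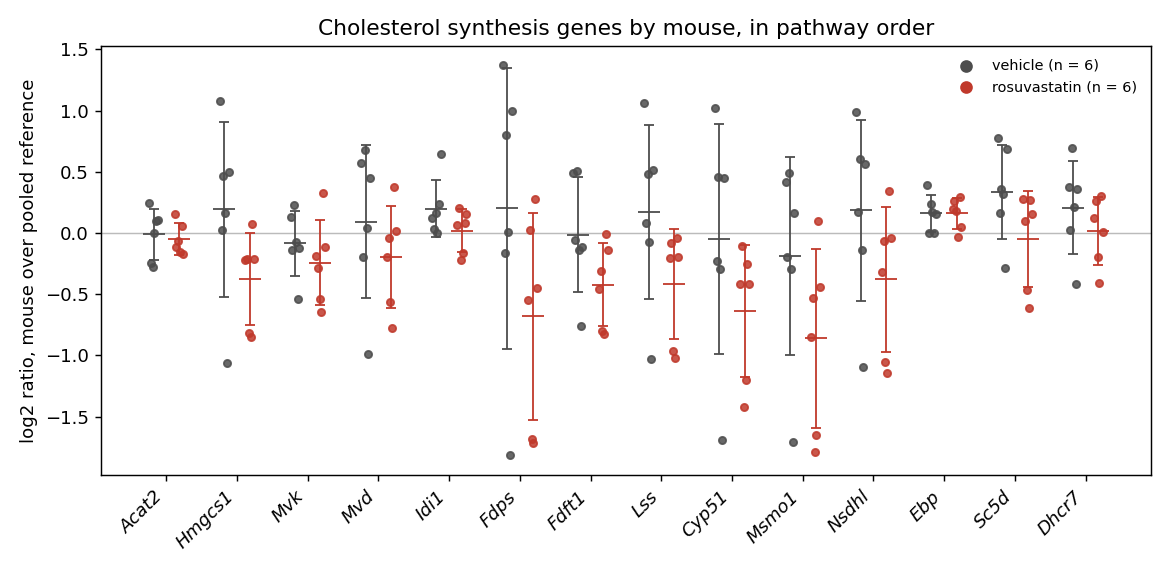
Log2 ratio over the pooled reference (y) of 14 cholesterol synthesis genes in pathway order (x), with 1 point per mouse and the mean and SD of each group (n = 6, vehicle grey, rosuvastatin red). The treated means lie below the vehicle means for 13 of these genes by more than 0.01, and the points of both groups overlap in every gene.

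A few mice lay at the ends of the pattern. With any 1 mouse left out, the median difference over the 16 genes stayed below 0, at -0.53 to -0.30. The median log2 ratio over the 16 genes in vehicle mice 1 to 6 was 0.53, -0.03, 0.47, 0.001, -0.65 and 0.45. Rosuvastatin mice 1 to 6 had -0.20, -0.09, -0.66, -0.71, 0.16 and -0.08. Rosuvastatin 3 and 4 and vehicle 5 form the low end, and vehicle 1, 3 and 6 the high end, and the treated mice lie almost wholly within the vehicle range. Rosuvastatin 3 and 4 were the 2 lowest of their group in 14 of 16 genes, beside 16.5% of all probes. Vehicle 5 was the lowest of its group in 13 of 16, beside 30.9% of all probes. The vehicle SD of a cholesterol gene had a median of 0.481, and of 0.346 without vehicle 5, beside 0.223 and 0.188 over all probes. The list median of the difference was -0.40, and -0.53 without vehicle 5. Among the arrays with a 197-pixel ring, 4 against 4, it was 0.07, with 10 of 16 genes above 0, and -0.16 once vehicle 5 was left out as well. The 1 rosuvastatin and 1 vehicle array with a 214-pixel ring differed by -1.24. With ring area as a block the median was -0.31. Without vehicle 5, Fdps was at -1.28, Msmo1 at -0.98, Cyp51 at -0.92, Nsdhl at -0.82 and Lss at -0.83, and their adjusted p-values in limma were 0.121, 0.153, 0.153, 0.170 and 0.121. Mvd was then at -0.51, Dhcr7 at -0.32, Mvk at -0.25, Ebp at -0.032 and Acat2 at -0.015. Both rosuvastatin mice at the low end lie outside the 197-pixel set, as do vehicle 1 and 3 at the high end, while vehicle 5 lies within it. The part of the ring area in the pattern was not tested.

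**Figure D3:**
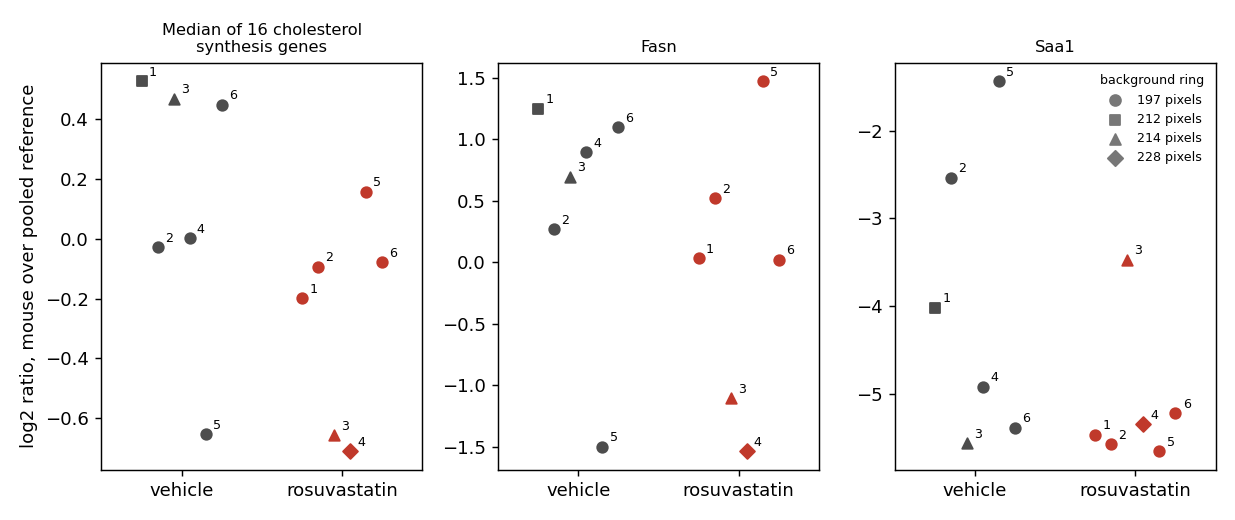
Log2 ratio over the pooled reference (y) for each mouse, numbered by replicate, in the vehicle and rosuvastatin groups (x): the median of 16 cholesterol synthesis genes, Fasn and Saa1. Marker shape gives the background ring area of the array; vehicle 5 and rosuvastatin 3 and 4 are the lowest points in the first panel (-0.65, -0.66 and -0.71) and in the Fasn panel.

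Of 5 kept genes of the SREBP pathway list, 1 had a value above 0 and 4 below, with a median of -0.09. That median was -0.21 without vehicle 5, 0.05 within the 197-pixel set and 0.05 there without vehicle 5, so its sign was not stable. Insig1, a sterol sensor that is itself an SREBP target, ran from -0.72 to 0.68 in vehicle mice and from -1.19 to 0.26 in treated mice. Rosuvastatin 3 and 4 were the lowest at -1.14 and -1.19, below every vehicle mouse, while the other 4 treated mice lay between 0.06 and 0.26. The difference for Insig1 was -0.34 (SE 0.30), and 0.30 within the 197-pixel set. Insig2, the second sensor, was at -0.07 (SE 0.20) and Scap at -0.09 (SE 0.10), and without vehicle 5 they were at -0.21 and -0.029. Mbtps1, the protease that makes the first cut of SREBP, was at 0.24 (SE 0.18), with each of the 6 treated mice over the vehicle mean. Its probe was dim, at 109 to 257 intensity units in vehicle and 101 to 192 in treated mice, over array backgrounds of 62 to 104.

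Of 3 kept fatty acid synthesis genes, Fasn and Scd1 were lowest in the same mice and Mlxipl was not. Fasn, fatty acid synthase, had log2 ratios in vehicle mice 1 to 6 of 1.25, 0.27, 0.70, 0.89, -1.50 and 1.10. Treated mice 1 to 6 had 0.03, 0.52, -1.10, -1.54, 1.47 and 0.02. The range within either group exceeded 2 log2 units, and the difference was -0.55 (SE 0.52). Leaving out vehicle 5 took it to -0.94, whereas dropping single treated mice gave -0.26 (mouse 4), -0.35 (mouse 3) and -0.86 (mouse 5). Scd1, the desaturase that makes monounsaturated fatty acids, was at -0.46 (SE 0.27), on a reference channel that was saturated on 5 of the 12 arrays. Mlxipl, the carbohydrate-responsive factor of the same programme, was at 0.16 (SE 0.11), with vehicle 5 at 0.0029 and rosuvastatin 3 and 4 at 0.06 and 0.18, none of them the lowest of its group. The probe named Acas2, an older name for more than 1 gene of acetyl-CoA synthesis and left as the array gives it, had log2 ratios of 1.76, 0.51, 1.61, 0.14, -1.30 and 1.69 in vehicle mice 1 to 6. The treated mice 1 to 6 had -0.31, 0.46, -0.81, -1.45, 0.56 and -0.14. All 6 treated mice lay below the vehicle mean, and the log2 fold change of -1.02 (SE 0.48, adjusted p = 0.723) came to -1.42 without vehicle 5 (adjusted p = 0.121) and to -0.12 within the 197-pixel set.

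The smallest p-values belonged to the xenobiotic receptors. Nr1i2 (PXR) had log2 ratios of -0.23, -0.37, -0.46, -0.18, 0.12 and -0.05 in vehicle mice 1 to 6. Treated mice 1 to 6 had 0.10, 0.13, 0.73, -0.01, 0.31 and 0.06. Every treated mouse was above the vehicle mean and 3 of 6 above the highest vehicle mouse, vehicle 5. The log2 fold change of Nr1i2 was 0.41 (SE 0.12, interval 0.16 to 0.66), a 1.33-fold level, with an adjusted p of 0.578 in limma and an exact two-sided permutation p of 0.0108 where 924 splits allow no less than 0.00216. This permutation p is not adjusted for the choice of the gene, which was picked with Nr1i3 for the smallest p of 188 probes. The probe was dim, at 144 to 242 intensity units in vehicle and 112 to 256 in treated mice over backgrounds of 58 to 106, and above background on 2 of 6 and 3 of 6 arrays. With plain background subtraction the value was 1.10, and with median centring in place of loess 0.64.

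Nr1i3 (CAR) was measured well above background on all 12 arrays. Its log2 ratios in vehicle mice 1 to 6 were -0.57, -0.17, -0.21, -0.19, -0.48 and -0.36. In rosuvastatin mice 1 to 6 they were -0.20, -0.17, 0.16, 0.31, -0.05 and 0.18. The 4 treated mice 3 to 6 lay above every vehicle mouse and treated mice 1 and 2 within the vehicle range. The log2 fold change of Nr1i3 was 0.37 (SE 0.12, interval 0.12 to 0.62, adjusted p = 0.584), with an exact two-sided permutation p of 0.0108, likewise unadjusted. Within the 197-pixel set Nr1i2 was at 0.26 and Nr1i3 at 0.24, and at 0.34 and 0.18 when vehicle 5 was left out of that set. Rxra, the partner with which both receptors bind DNA, was at 0.05 (SE 0.13), and at 0.15 without vehicle 5. Of 5 kept genes of this list 3 had values above 0 and 2 below.

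**Figure D4:**
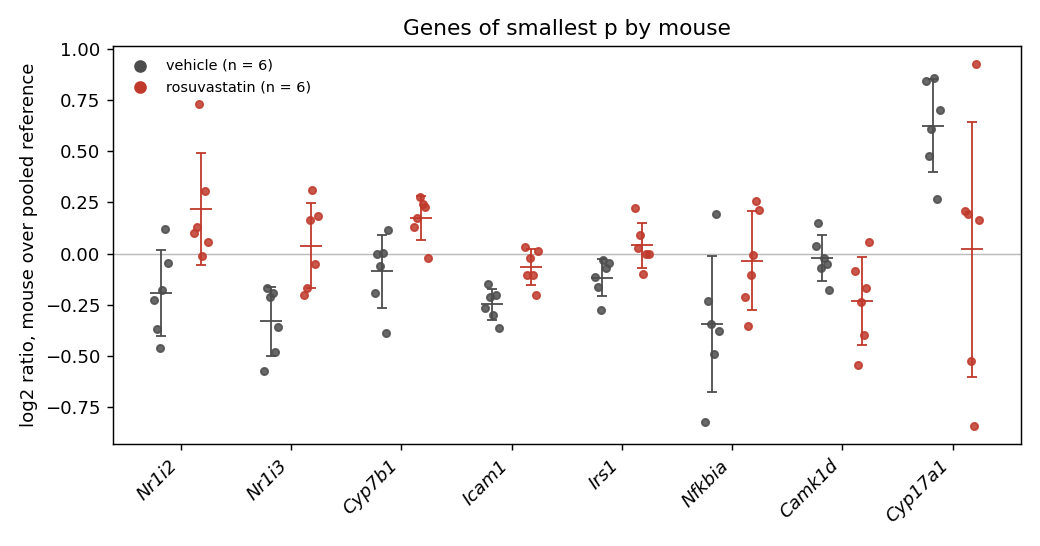
Log2 ratio over the pooled reference (y) of 8 genes among those of smallest p (x), with 1 point per mouse and the mean and SD of each group (n = 6, vehicle grey, rosuvastatin red). Points of both groups overlap in every gene, and the means are farthest apart in Cyp17a1 (0.62 and 0.02).

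Of 10 kept genes that PXR or CAR is known to switch on, 7 had values above 0 and 3 below, with a median of 0.16 beside -0.0066 over all probes and 0 called. This median was 0.12 without vehicle 5, 0.13 within the 197-pixel set and 0.014 there without vehicle 5. With ring area as a block it was 0.13. Cyp2b10, the classic CAR target, was at 0.06 (SE 0.12), with vehicle mice from -0.29 (vehicle 5) to 0.41 and treated mice from -0.19 to 0.43. With vehicle 5 left out, the vehicle mean of Cyp2b10 lay above the treated mean, so its sign rested on that array. Cyp3a11, the classic PXR target, was at 0.29 (SE 0.23), with reference spots saturated on all 12 arrays and sample spots on none, so that its reference level is known only as a lower bound. Alas1, the first enzyme of haem synthesis, had the highest value of the list at 0.30 (SE 0.20), and Abcc3, an exporter of conjugates, was at 0.28 (SE 0.15). Of 17 kept drug metabolism P450s 15 had values above 0 and 2 below, beside 48.4% of all probes above 0, with a median of 0.13. None was called, and the values of this list ran from -0.11 to 0.29. It shares Cyp2b10, Cyp3a11, Cyp3a13, Cyp3a25 and Cyp3a41a with the PXR and CAR targets, so the counts of both lists are not independent. The P450 median was 0.11 without vehicle 5, 0.081 within the 197-pixel set and 0.0091 there without vehicle 5. With ring area as a block it was 0.14. Cyp2e1, which oxidises ethanol and small solvents, had the smallest p of the P450s at 0.21 (SE 0.11), with reference spots saturated on 4 of 12 arrays.

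Of 7 kept genes of bile acid synthesis and its receptors 6 had values above 0 and 1 below, with a median of 0.09 and 0 called. Cyp7b1, the oxysterol hydroxylase of the alternative bile acid pathway, had log2 ratios from -0.39 to 0.12 with a median of -0.03 in vehicle mice and from -0.02 to 0.28 with a median of 0.20 in treated mice. Of the treated mice 5 lay above the highest vehicle mouse and 1, rosuvastatin 6, within the vehicle range. The difference for Cyp7b1 was 0.26 (SE 0.09, interval 0.06 to 0.45, adjusted p = 0.723), and 0.09 within the 197-pixel set without vehicle 5. Cyp8b1, the sterol hydroxylase that sets the cholic acid share, was at 0.25 (SE 0.40), with vehicle mice from -1.71 to 0.56. Nr1h4, the bile acid receptor FXR, was at 0.10 (SE 0.09). Sterol efflux genes (5 kept, 1 above 0 and 4 below) had a median of -0.11, and of 0.036 without vehicle 5, with the cholesterol exporter Abca1 at -0.11 (SE 0.13). Of 12 kept transporters 7 were above 0 and 5 below with a median of 0.05, and the highest value was that of Slco1a1, an organic anion uptake carrier, at 0.33 (SE 0.24), and at 0.14 without rosuvastatin 4, whose log2 ratio was 1.10. Of 9 kept apolipoprotein and lipid transfer genes 6 were above 0 and 3 below, with a median of 0.03, the largest being Apoe at 0.17 (SE 0.11).

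Energy and glucose genes had medians of 0.10 over 6 fatty acid oxidation genes (5 above 0 and 1 below) and of 0.04 over 13 glucose genes (8 above 0 and 5 below). Ppara, the fasting-lipid receptor, was at 0.23 (SE 0.13). Ucp2, a mitochondrial carrier, was at -0.34 (SE 0.17), with a probe above background on 4 vehicle and 3 rosuvastatin arrays. Pklr, liver pyruvate kinase, was at -0.29 (SE 0.18). Irs1, an adaptor of the insulin receptor, had a difference of 0.16 (SE 0.06) with 5 of 6 treated mice above the highest vehicle mouse. Its probe was above background on 3 vehicle and 4 rosuvastatin arrays.

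The Saa genes varied widely between mice. Saa1, an acute phase protein made by hepatocytes, had log2 ratios in vehicle mice 1 to 6 of -4.02, -2.54, -5.56, -4.91, -1.44 and -5.39. In rosuvastatin mice 1 to 6 they were -5.46, -5.57, -3.47, -5.34, -5.65 and -5.22. Vehicle 5 was the highest of all 12 and rosuvastatin 3 the highest of its group, and both were also at the low end of the cholesterol synthesis genes, while rosuvastatin 4 was low in those genes with Saa1 in the range of its group. The difference for Saa1 was -1.14 (SE 1.07), -0.64 without vehicle 5 and -1.91 within the 197-pixel set. Saa2, the gene with the widest range over the 12 mice (4.23 log2 units), was at -1.11 (SE 1.07) and at -0.60 without vehicle 5, but Saa1 and Saa2 are near-identical copies whose probes may share signal. Apcs, serum amyloid P, was at -0.37 (SE 0.24). Of 14 kept acute phase and complement genes 3 were above 0 and 11 below, with a median of -0.13. Among 6 kept NF-kB and stress kinase genes 3 were above 0 and 3 below. Icam1, an adhesion molecule, was at 0.18 (SE 0.07), with 5 of 6 treated mice above the highest vehicle mouse and a probe above background on 3 vehicle and 5 rosuvastatin arrays. Nfkbia, the inhibitor of NF-kB and itself its target, ran from -0.82 to 0.19 with a median of -0.36 in vehicle mice and from -0.35 to 0.26 with a median of -0.05 in treated mice. The difference for Nfkbia was 0.31 (SE 0.14, adjusted p = 0.723).

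Among the remaining genes, Cyp17a1, the steroid hydroxylase and lyase, had log2 ratios of 0.84, 0.47, 0.61, 0.86, 0.27 and 0.70 in vehicle mice 1 to 6. In rosuvastatin mice 1 to 6 they were 0.21, 0.19, -0.52, -0.84, 0.92 and 0.16. Of the treated mice 5 lay below the lowest vehicle mouse, vehicle 5, and 1 lay above all vehicle mice, so the groups overlap through rosuvastatin 5 alone. The log2 fold change of Cyp17a1 was -0.60 (SE 0.26, interval -1.16 to -0.05, adjusted p = 0.723), and -0.20 within the 197-pixel set. Camk1d, a calcium-dependent kinase, was at -0.21 (SE 0.09), with 3 treated mice below every vehicle mouse. The probe named Nr3c4, which had no match in the RefSeq table, was at 0.23 (SE 0.11), and at 0.13 without vehicle 5. Clock genes had a median of 0.01 over 6 genes (3 above 0 and 3 below), with Cry1, a repressor of the clock, at 0.25 (SE 0.13). Steroid hormone P450s had 1 of 3 kept genes above 0 and 2 below. Of 3 reference genes, Ppia (cyclophilin A) was at -0.18 (SE 0.08) and had an unadjusted limma p of 0.0496, and Actb (beta-actin) was at 0.22 and 0.21 by its 2 probes.

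**Figure D5:**
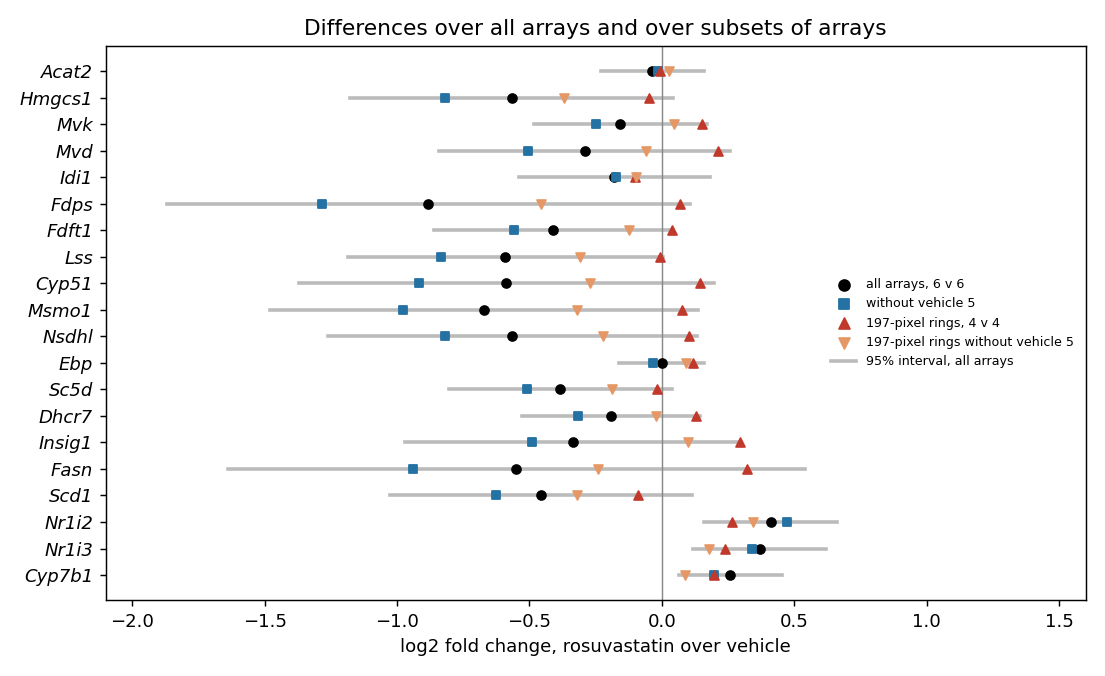
Log2 fold change of rosuvastatin over vehicle (x) of 20 genes (y) over all arrays with the 95% interval of the limma fit (black point, grey bar), without vehicle 5 (blue), over the 197-pixel arrays, 4 against 4 (red), and over those without vehicle 5 (orange). Most cholesterol synthesis genes lie farther left without vehicle 5 and close to 0 in the 197-pixel arrays, where Fdps is at 0.07 beside -0.88 over all arrays.

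The size of a difference that these arrays can bound varied with the gene. Mice of a group had a median SD of 0.197 log2 units, and spots of a probe on 1 array of 0.0971, so that mice differed more than replicate spots. The 95% interval lay within 1 log2 unit of 0 for 173 probes (92%) and within 0.5 for 135 (71.8%). In cholesterol synthesis genes the median SD within a group was 0.396, the intervals of 6 of 16 reached to -1 or lower and those of 15 of 16 held 0. A halving of those 6 transcripts could therefore not be told from no difference. The same vehicle mice serve as controls of atorvastatin, given at 40 mg/kg, so both statins share them. Against vehicle, the values for atorvastatin and rosuvastatin were 0.14 and 0.41 for Nr1i2, 0.27 and 0.37 for Nr1i3, -0.39 and -0.88 for Fdps and 0.08 and -0.67 for Msmo1. The direct contrast of both statins called 0 of 188 probes (0%) at an adjusted p of 0.05, which does not show that they act alike, and for Msmo1 it was 0.75 (95% interval -0.06 to 1.56).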

How the data were processed

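Values start from the deposited spot intensity of each array: per the file headers, the authors exported the median brightness of a spot and of its local background in both channels, with no background removed, and the number of pixels in the background ring. The sources used here name neither scanner nor image software. A deposited table of log2 ratios has unknown scaling and centring. Its columns correlated with the scanner ratios of the same array at r = 0.735 to 0.971, so it runs in the same direction, and it served as an alternative. With R 4.3.3 and limma 3.58.1, background was corrected by normexp (offset 50), ratios were normalised by loess in which control spots had weight 0, and spots of a probe were averaged. A spot was above background where it passed the local background plus 2 SDs, and a probe where at least as many of its spots did as did not. Probes above background on at least 6 of 18 arrays were kept. All 18 arrays entered 1 fit (lmFit, eBayes) with a mean per group. Tests were two-sided and adjusted by Benjamini-Hochberg over 188 probes at 0.05, and the procedure was tested on simulated data. For a gene with several probes the brightest was used. The labels give 1 mouse per array and neither litter nor cage. Array names were matched to the RefSeq table of GRCm38.p6.

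The members and the gene lists were chosen with earlier results of these data known. Genes named are the 20 of smallest p, the members of the lists for cholesterol synthesis, the SREBP pathway and xenobiotic receptors, the member of largest value and of smallest p in each other list, and the gene of widest range. Cyp2b10, Cyp8b1, Nr1h4, Abca1, Ppara and Mlxipl were added after their values were seen, as known members of their lists. A few of these genes are not reported here, though counts and medians hold them. The alternatives changed the background correction, normalisation, filter, saturated spots, averaging, weights, samples, blocks and the source table. The pairing of replicate numbers was checked: deviations of same-numbered mice correlated between -0.603 and 0.325 over 6 pairs.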

Additional observations from a re-analysis of the deposited data

Results flagged for a closer look

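In 10 of 90 groups of 6 mice, over 45 named genes, 1 mouse lay far from the rest by the gap to its nearest neighbour over the range of the group. Chance flags about 1 in 20 groups, and flags of the same mouse are not independent. Vehicle 5 was the low mouse for Msmo1 (-1.71, next -0.30), Fasn (-1.50, next 0.27) and the probe Nr3c4 (-0.58, next -0.10). Vehicle 6 was the high mouse for Idi1 (0.64, next 0.24) and Mbtps1 (0.20, next -0.21), and vehicle 2 the low mouse for Cry1 (-0.52, next -0.22). Rosuvastatin 3 was the high mouse for Saa1 (-3.47, next -5.22) and Saa2 (-3.52, next -5.16). Rosuvastatin 4 was the high mouse for Slco1a1 (1.10, next 0.24) and rosuvastatin 5 for Pklr (0.62, next 0.01). No probe differed between both statins at an adjusted p of 0.05 in limma.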

How the results depend on the processing

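The count of 0 probes past an adjusted p of 0.05 was the same in every alternative run that gave a test, the smallest adjusted p being 0.119 with array weights and 0.121 without vehicle 5. The count with an unadjusted p under 0.05, 12 of 188, was 6 with median centring, 3 with a shift on the spike-ins, 6 with scale normalisation, 6 of 144 with probes above background on all 18 arrays, 6 with the 12 arrays alone, 21 with array weights, 6 with ring area as a block, 7 within the 197-pixel set, 5 there without vehicle 5 (an alternative chosen after seeing the data) and 4 of 175 with the deposited table. It was 5 to 29 when 1 mouse was left out (the mice that moved it most were rosuvastatin 4 with 5, vehicle 1 with 6, rosuvastatin 3 with 7, rosuvastatin 5 with 22 and vehicle 5 with 29). The replicate block, whose numbers share nothing that the labels name, gave 17 such probes and 0 adjusted, and 1 of 6 vehicle mice correlated best with its own number. The cholesterol list median was -0.53 to -0.30 with 1 mouse left out, 0.074 within the 197-pixel set and -1.24 in the 214-pixel pair. The fatty acid synthesis list median was -0.46, and -0.64 to -0.26 with 1 mouse left out. It was 0.051 within the 197-pixel set, -0.24 there without vehicle 5 and -1.06 in the 214-pixel pair. The other list medians lay between -0.13 and 0.16. Leaving out 1 mouse turned the sign of those of xenobiotic receptors (to -0.032), bile acid genes (-0.0073), sterol efflux (0.036) and apolipoproteins (-0.036). It also turned those of NF-kB genes (-0.023), clock genes (-0.023) and steroid P450s (0.011).

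Among the named genes, leaving aside those added after their values were seen, signs turned as follows. Ebp was 0.017 with plain subtraction, 0.020 without correction, 0.0073 with offset 16, 0.036 with scale normalisation and 0.033 with the ring block. Acat2 was 0.039 with array weights. Within the 197-pixel set the values were 0.040 for Fdft1, 0.070 for Fdps, 0.15 for Mvk, 0.21 for Mvd, 0.14 for Cyp51, 0.078 for Msmo1, 0.10 for Nsdhl, 0.12 for Ebp, 0.13 for Dhcr7, 0.30 for Insig1, -0.057 for Rxra and 0.32 for Fasn. Without vehicle 5 in that set they were 0.028 for Acat2, 0.045 for Mvk, 0.091 for Ebp, 0.054 for Scap and 0.10 for Insig1. In the 214-pixel pair they were 0.21 for Acat2, -0.044 for Alas1, -0.070 for Apoe, 2.09 for Saa1, 0.26 for Apcs and 2.08 for Saa2. In the deposited table Cyp2e1 was -0.048, Mbtps1 -0.0053 and Rxra -0.040. With 1 mouse left out the ranges were -0.090 to 0.015 for Acat2, -0.032 to 0.046 for Ebp, -0.21 to 0.019 for Insig2 and -0.032 to 0.15 for Rxra. The cause of these turns was not tested. Saturated reference spots limit the value of Cyp3a11, and dim spots those of Nr1i2, Icam1, Irs1, Ucp2, Slco1a1, Mbtps1 and the probe Nr3c4. Dim spots also limit some cholesterol synthesis genes, of which 11 of 16 were above background on all 18 arrays. The median difference of these 11 genes was -0.38.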
